A study of Mus musculus with 6 samples.

Results

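The genes described here are 48 DNA repair genes, grouped by repair pathway, whose transcripts were compared between tetraploid and diploid hepatocytes of the mouse. A gene was taken where the array annotation gave a probe set its symbol, or an official alias, and no other symbol. With several such probe sets, the one with the highest mean over the 6 arrays stood for the gene. This left 39 of the 48 genes, out of 12393 genes named on the array in the same way. Palb2, Xrcc2, Xrcc3, Rad54b, Fancb, Fancd2, Mdc1, Lig4 and Neil1 were not analysed here. Bard1 and Fance were too dim to be tested. Their mean log2 intensity was under 5.06, the limit that sets aside the dimmest 25% of genes, and 37 members remained among the 9295 genes tested.

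The cells were primary hepatocytes from C57BL/6 mice that were wild type and 3 weeks old, with 3 arrays of the tetraploid and 3 of the diploid fraction. Both fractions came from freshly isolated cells stained with Hoechst 33342, a dye that binds DNA, and were separated by flow cytometry immediately before extraction of RNA with Trizol. A gate on DNA content does not separate a tetraploid cell at rest from a diploid cell that has copied its DNA, and the sources used here do not say how cells between the gates were treated. The labels call the replicates biological and do not state that each is another animal. Errors and p-values therefore describe how these samples scatter, and that scatter may be technical in part.

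Hepatocyte genes were at a high level on all arrays. The 6 measured markers of hepatocytes had mean log2 intensities between 12.66 for Hnf4a and 15.57 for Alb in the tetraploid fraction, and between 12.68 and 15.56 for the same genes in the diploid fraction. The 5 measured lymphocyte markers summed to intensities of 140 to 152 on the tetraploid arrays, against 162 to 173 on the diploid arrays, without overlap, and all 5 had the lower mean in the tetraploid fraction. Of these, 4 lay below the limit for dim genes, among them Ptprc, which marks all white blood cells. The 8 endothelial markers summed to 762 to 911 on the tetraploid arrays, against 718 to 792 on the diploid arrays, and 6 of them had the higher mean in the tetraploid fraction. The sums for Kupffer cells, stellate cells, cholangiocytes and erythroid cells overlapped between the fractions. The part of these cells in the results below was not tested.

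Homologous recombination mends a broken chromosome by copying the sister chromatid, which exists only once DNA has been replicated. The Fanconi anaemia proteins use part of this machinery to clear crosslinks between the DNA strands that stop a replication fork. End joining ligates broken ends directly in any phase of the cycle. Mismatch repair corrects copying errors behind the fork, base excision repair removes small damaged bases such as those made by oxidation, and nucleotide excision repair cuts out bulky lesions, and both excision routes also act in cells that do not divide. The liver meets oxidative and chemical damage while most of its hepatocytes rest, and in the mouse they turn polyploid in the weeks round weaning.

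The differences of the repair genes had both signs, and the pathways were not tested against each other. Of homologous recombination, Rad51ap1, Rad54l, Brca1, Rad51c and Brca2 were lower in tetraploid cells at an unadjusted limma p under 0.05, as was Ung, the uracil glycosylase gene of base excision repair. The genes of the break sensor complex differed by between -0.10 and 0.05, and end joining and nucleotide excision repair had medians of -0.02 and 0.05. Differences are given on the log2 intensity scale as tetraploid minus diploid, with the standard error (SE) of limma's fit across all tested genes, and with Benjamini-Hochberg adjusted p-values over the 9295 genes. After this adjustment 0 of the 37 tested members passed the threshold of 0.05, and so did 0 of all genes tested, which is 0%. Of all genes tested, 18 tied at the lowest adjusted p of 0.211, among them the members Rad51ap1, Exo1 and Rad54l. At an unadjusted limma p under 0.05, 12 of 37 members (32.4%) were lower in the tetraploid fraction, where 3.85% of all tested genes were. At the same limit 1 of 37 members (2.70%), Ercc1, was higher, where 2.32% of all tested genes were. For 10 members (27.0%) all 3 tetraploid arrays lay below all 3 diploid arrays, a pattern shared by 7.08% of all tested genes, and for 3 members (8.11%) they lay above, as for 5.22% of all tested genes. Both counts of lower members include Exo1 and Mutyh, which passed the limit for dim genes only through the diploid fraction. Among the 35 members with both means above the limit, a restriction added after the data were seen, 10 (28.6%) were lower at that p and 8 (22.9%) had tetraploid arrays below all diploid arrays. The shares of all genes under the same restriction were 3.66% and 6.83%. A lower tetraploid mean was seen in 26 of the 37 members (70.3%) and in 52.2% of all tested genes. The median difference of the members was -0.10, and that of all tested genes -0.006. Without diploid replicate 1, 7 members were lower at an unadjusted limma p under 0.05, beside 2.46% of all tested genes. Because the values come from pools of sorted cells and were scaled to the same distribution on each array, fewer cells with a transcript and less transcript per cell cannot be told apart, nor can a difference in total RNA per cell be seen.

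**Figure D1:**
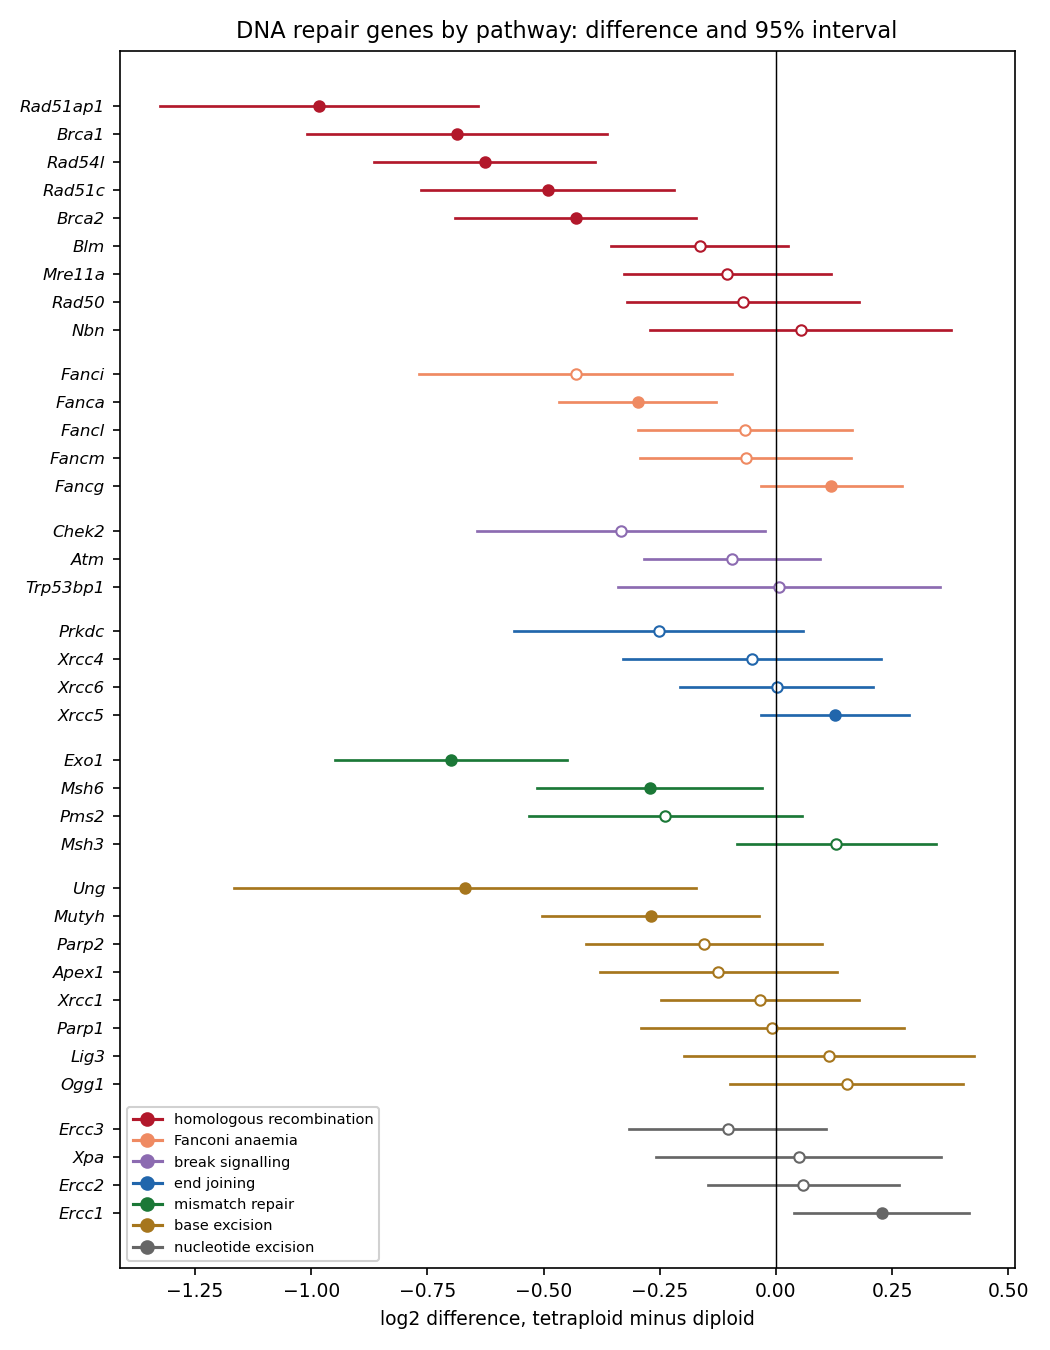
Difference between the fractions for the 37 tested repair genes, by pathway. The horizontal axis gives the log2 difference, tetraploid minus diploid, the points are the limma estimates with their 95% intervals, and filled points mark genes whose 3 tetraploid and 3 diploid arrays do not overlap. The lowest estimates are Rad51ap1 at -0.98, Exo1 at -0.70 and Brca1 at -0.69, while the genes of nucleotide excision repair lie between -0.10 and 0.23. Exo1 was tested only through its level in the diploid fraction.

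Among the genes of homologous recombination, 9 were tested. Of these, 8 had the lower mean in tetraploid cells, 5 had fractions that did not overlap, and the median difference was -0.43. This median was -0.18 when the probe sets of a gene were averaged and -0.25 when the dimmest 50% of genes were set aside. That filter left out Rad51ap1, Rad54l and Rad51c. Rad51ap1, which stimulates strand invasion, had log2 intensities of 6.37, 6.28 and 5.98 on tetraploid replicates 1 to 3 and 7.40, 6.93 and 7.25 on diploid replicates 1 to 3. The highest tetraploid array was 0.57 below the lowest diploid array, the widest gap of any member. The difference was -0.98 ± 0.15, a 1.98-fold lower level, with an adjusted p of 0.211. Rad54l, a motor protein that helps open the partner DNA, was at 5.94, 5.94 and 5.89 on the tetraploid and 6.67, 6.34 and 6.65 on the diploid arrays. The tetraploid arrays lay close together, and the difference was -0.63 ± 0.10 (adjusted p = 0.211).

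Brca1, which promotes the trimming of broken ends, was at 6.84, 7.17 and 6.99 on tetraploid replicates 1 to 3, against 7.71, 7.43 and 7.91 on the diploid ones. Brca2, a tumour suppressor needed for recombination at trimmed ends, was at 6.93, 6.81 and 6.78 on the tetraploid and 7.49, 7.09 and 7.24 on the diploid arrays. In both genes diploid replicate 2 was the lowest of its fraction and still above every tetraploid array. The differences were -0.69 ± 0.14 for Brca1 and -0.43 ± 0.11 for Brca2, with adjusted p-values of 0.323 and 0.484. Averaging the 4 probe sets of Brca1 gave a difference of -0.18. Rad51c, which is needed for recombination and for crosslink repair, was at 6.25, 6.18 and 6.51 on the tetraploid and 6.98, 6.68 and 6.75 on the diploid arrays. The tetraploid array nearest to the diploid range was replicate 3, and the difference was -0.49 ± 0.12 (adjusted p = 0.387).

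The other 4 tested members of recombination had smaller differences and overlapping fractions. Mre11a, Rad50 and Nbn encode the complex that senses broken ends and starts their trimming. Mre11a differed by -0.10 ± 0.09, Rad50 by -0.07 ± 0.11 and Nbn by 0.05 ± 0.14, each with overlapping fractions. Their 95% intervals ran from -0.33 to 0.12, -0.32 to 0.18 and -0.27 to 0.38. Blm, the helicase that dissolves crossed strands late in recombination, was at 6.41, 6.50 and 6.37 on the tetraploid and 6.63, 6.47 and 6.66 on the diploid arrays. Diploid replicate 2 fell inside the tetraploid range, and the difference was -0.16 ± 0.08. Bard1, the partner of BRCA1 in its ubiquitin ligase, was dim, at 3.90 ± 0.06 in the tetraploid and 3.96 ± 0.14 in the diploid fraction (SD, n = 3).

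**Figure D2:**
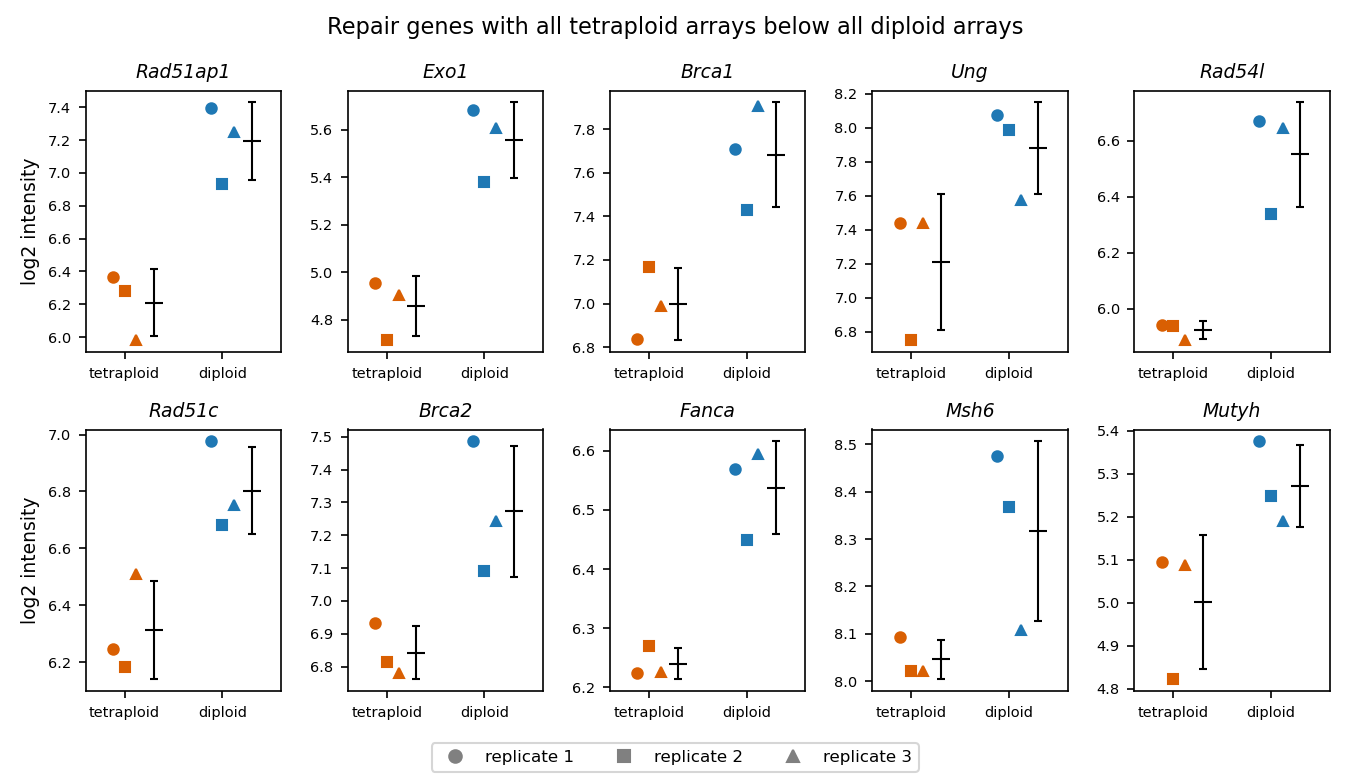
Log2 intensity on every array for the 10 repair genes whose tetraploid arrays all lie below the diploid arrays, with tetraploid arrays on the left of each panel. Symbols are replicates, bars are the mean and SD of 3 arrays, and each panel has its own vertical range. The separation is widest for Rad51ap1, at 0.57 between the nearest arrays, and narrowest for Msh6, at 0.01.

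Diploid replicate 2 was the lowest diploid array for 7 of these 10 genes, and diploid replicate 3 for the other 3, namely Msh6, Mutyh and Ung. With diploid replicate 2 left out, 18 members had tetraploid arrays that were all below the diploid ones, beside 13.9% of all tested genes. With any other single array left out the count was 11 to 13 members, beside 9.79% to 13.96% of all tested genes. The lowest share came without diploid replicate 1, with 12 members, and the highest without tetraploid replicate 3, with 11 members. The cause of the higher count without diploid replicate 2 was not tested.

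The promoters of the members were searched for a motif of E2F factors, which drive genes of DNA replication, because several members of recombination were lower together. The RefSeq table of assembly GRCm38.p6 held 44 promoter windows of 300 bases for 40 of the 48 members, each with 250 bases before and 50 after a transcription start. The letters TTTNNCGC, with N for any base and both strands read, occurred in 10 of these windows (22.7%), in 8.10% of the windows of all tested genes and in 5.17% of all windows in the table. Among the tested members whose tetraploid arrays lay below the diploid arrays, 4 of 12 windows held the letters, from Brca2, Msh6 and both starts of Rad51c. Among the other tested members they occurred in 4 of 23 windows, from Fancg, Chek2, Xrcc6 and Msh3. Of the 27 windows of a list of DNA replication genes, 14 (51.9%) held them. Of the windows found for Brca1, Rad51ap1, Rad54l, Fanca, Mutyh and Ung, 0 held these letters. Only these exact letters were searched for, so other forms of an E2F motif in these windows would be missed. The stretches below show matches in genes that were lower in the tetraploid fraction and in genes that were not, with the matching letters in capitals, read 5′ to 3′ on the strand of the gene.
Brca2, chr5:150522423-150522490, plus strand: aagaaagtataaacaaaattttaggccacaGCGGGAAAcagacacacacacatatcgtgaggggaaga
Rad51c, chr11:87404458-87404525, minus strand: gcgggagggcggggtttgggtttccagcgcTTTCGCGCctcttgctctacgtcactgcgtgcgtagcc
Msh6, chr17:87975035-87975099, plus strand: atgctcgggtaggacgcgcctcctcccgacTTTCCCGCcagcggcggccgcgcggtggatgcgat
Fancg, chr4:43010316-43010383, minus strand: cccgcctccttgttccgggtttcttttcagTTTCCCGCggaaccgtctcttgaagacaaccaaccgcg
Xrcc6, chr15:82016293-82016360, plus strand: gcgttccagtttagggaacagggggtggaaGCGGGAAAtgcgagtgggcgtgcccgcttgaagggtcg
Msh3, chr13:92355164-92355235, minus strand: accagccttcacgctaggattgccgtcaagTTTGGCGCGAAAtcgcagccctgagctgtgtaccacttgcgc

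The match began 168 bases before the start of Brca2 and after the start in Rad51c and Msh6, by 11 and 15 bases. It began 52 bases before the start in Fancg and 46 bases before it in Xrcc6, where a further match lay outside the stretch shown. The Msh3 stretch held 2 overlapping matches on opposite strands, beginning 202 bases before the start. A match was therefore found beside differences from -0.49 for Rad51c to 0.13 for Msh3, and is a description of the sequence alone. CCAAT, searched on both strands as the box bound by NF-Y, occurred in 26 of the 44 windows (59.1%) and in 37.4% of the windows of all tested genes. TTTGAA, the core letters of an element common in genes of mitosis, occurred in 1 of the 44 windows, that of Bard1, against 12.1% for all tested genes and 15 of 20 windows of a mitosis list.

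In the Fanconi pathway 5 genes were tested, and 2 of them, Fanca and Fanci, were lower at an unadjusted limma p under 0.05. Fanca, a scaffold of the core complex that marks stalled forks with ubiquitin, was at 6.22, 6.27 and 6.23 on the tetraploid and 6.57, 6.45 and 6.60 on the diploid arrays. The arrays of each fraction lay close together, and the difference was -0.30 ± 0.07 (adjusted p = 0.412). Fanci, a subunit of the clamp that receives the ubiquitin, was at 6.15, 6.47 and 5.95 on the tetraploid and 6.71, 6.43 and 6.72 on the diploid arrays. Tetraploid replicate 2 overlapped diploid replicate 2, and the difference was -0.43 ± 0.14 (adjusted p = 0.757). Fancg, an adaptor of the core, ran the other way, with 6.09, 6.15 and 6.09 on the tetraploid and 5.99, 6.0 and 5.99 on the diploid arrays. This small difference of 0.12 ± 0.07 came with fractions that did not overlap and an adjusted p of 0.839. Fancl, the ubiquitin ligase subunit, and Fancm, the motor that brings the core to DNA, differed by -0.07 ± 0.10 and -0.06 ± 0.10 with overlapping fractions. Fance was dim, at 4.88 ± 0.26 in the tetraploid and 4.82 ± 0.15 in the diploid fraction (SD, n = 3). The median of the 5 tested genes was -0.07, and -0.15 without tetraploid replicate 1.

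Genes of break signalling were represented by 3 members. Chek2, the kinase that relays the signal of a break, was at 6.48, 6.82 and 6.36 on the tetraploid and 7.01, 6.74 and 6.90 on the diploid arrays. Tetraploid replicate 2 lay above diploid replicate 2, and the difference was -0.33 ± 0.13 (adjusted p = 0.786). Atm, the kinase that starts this signal, was at 7.52, 7.52 and 7.42 on the tetraploid and 7.497, 7.55 and 7.70 on the diploid arrays, with overlap and a difference of -0.09 ± 0.08. Trp53bp1, whose product shields broken ends from trimming and favours end joining, was at 7.89, 8.08 and 7.80 on the tetraploid and 7.59, 8.08 and 8.08 on the diploid arrays, a difference of 0.007 ± 0.15. The arrays of both fractions ranged widely, and the sign turned with the arrays or the scaling used.

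The 4 tested genes of end joining had a median of -0.02, and of 0.03 with probe sets averaged. Xrcc5 and Xrcc6 encode the Ku ring that slides onto broken ends. Xrcc5 was at 9.04, 8.94 and 9.0 on the tetraploid and 8.89, 8.83 and 8.87 on the diploid arrays, higher in all 3 tetraploid arrays by a difference of 0.13 ± 0.07 (adjusted p = 0.839). Xrcc6 was at 8.47, 8.40 and 8.21 on the tetraploid and 8.40, 8.29 and 8.39 on the diploid arrays, and its difference of 0.001 had a 95% interval from -0.21 to 0.21. Prkdc, the kinase recruited by Ku, was at 6.82, 6.47 and 6.97 on the tetraploid and 7.12, 7.0 and 6.90 on the diploid arrays, with overlapping fractions and a difference of -0.25 ± 0.13. Xrcc4, which stabilises the ligase of this pathway, was at 7.71, 8.01 and 7.71 on the tetraploid and 8.02, 7.70 and 7.87 on the diploid arrays. It differed by -0.05 ± 0.12, and by 0.068 when its 2 probe sets were averaged.

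The mismatch repair members included a nuclease that also works in recombination. Exo1, which removes the strand holding a copying error and also trims broken ends, was at 4.95, 4.71 and 4.91 on the tetraploid and 5.68, 5.38 and 5.61 on the diploid arrays. The difference was -0.70 ± 0.11 (adjusted p = 0.211). All 3 tetraploid values lay under the limit for dim genes, so that Exo1 was tested only through its level in the diploid fraction. Msh6, which recognises single mismatches, was at 8.09, 8.02 and 8.02 on the tetraploid and 8.48, 8.37 and 8.11 on the diploid arrays. Here diploid replicate 3 came within 0.01 of tetraploid replicate 1, and the difference was -0.27 ± 0.10 (adjusted p = 0.779). Msh3, which recognises larger loops, had overlapping fractions and differed by 0.13 ± 0.09, and Pms2 encodes the endonuclease that nicks the faulty strand. Pms2 was at 6.21, 6.18 and 6.27 on the tetraploid and 6.70, 6.19 and 6.48 on the diploid arrays, with diploid replicate 2 inside the tetraploid range and a difference of -0.24 ± 0.13. The median of the 4 genes was -0.25. It was -0.15 with diploid replicate 1 left out, and -0.0704 when the dimmest 50% of genes, Exo1 and Pms2 among them, were set aside.

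In base excision repair 8 genes were tested, and the differences of its glycosylase genes had both signs. Ung, which removes uracil from DNA and has a nuclear form that acts at replication forks, was at 7.44, 6.75 and 7.44 on the tetraploid and 8.08, 7.99 and 7.57 on the diploid arrays. Tetraploid replicate 2 was far below the other 2, so the difference of -0.67 ± 0.21 carried the largest error of any member (adjusted p = 0.671). Mutyh, which removes adenine paired with oxidised guanine, was at 5.10, 4.82 and 5.09 on the tetraploid and 5.38, 5.25 and 5.19 on the diploid arrays. The fractions did not overlap, the difference was -0.27 ± 0.10 (adjusted p = 0.779). The tetraploid mean of 5.0 lay under the limit for dim genes, and Mutyh was tested only through the diploid mean of 5.27. Ogg1, which removes the oxidised guanine itself, was at 5.93, 6.14 and 6.18 on the tetraploid and 5.85, 5.84 and 6.10 on the diploid arrays, with overlap and a difference of 0.15 ± 0.11.

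The 5 other members of base excision repair, which act after the damaged base is removed, had fractions that overlapped. Apex1, which cuts the backbone at the empty site, differed by -0.12 ± 0.11. The damage sensor Parp1 was at 8.80, 8.38 and 8.64 on the tetraploid and 8.67, 8.70 and 8.48 on the diploid arrays. It differed by -0.008 ± 0.12, with a 95% interval from -0.29 to 0.28, and its relative Parp2 by -0.15 ± 0.11. The scaffold Xrcc1 differed by -0.03 ± 0.09 and its ligase Lig3 by 0.11 ± 0.13. The differences of the 3 probe sets for Parp1 lay closer to each other than those of any other member with several, and all 3 were close to 0. The median of the 8 genes was -0.08.

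The 4 tested genes of nucleotide excision repair had a median of 0.05, and of 0.0055 with probe sets averaged. Ercc1, a subunit of the nuclease that cuts on one side of the lesion, was at 6.05, 6.18 and 6.28 on the tetraploid and 5.97, 5.94 and 5.92 on the diploid arrays. The diploid arrays lay close together, and the difference was 0.23 ± 0.08, a 1.17-fold higher level (adjusted p = 0.765). Its unadjusted limma p was no longer under 0.05 when any 1 of tetraploid replicates 2 and 3 and diploid replicates 2 and 3 was left out. Ercc2 and Ercc3 encode the helicases of the transcription factor TFIIH, which open the DNA around a lesion. Ercc2 was at 7.38, 7.49 and 7.497 on the tetraploid and 7.54, 7.28 and 7.37 on the diploid arrays, a difference of 0.06 ± 0.09. Ercc3 was at 7.08, 7.24 and 7.23 on the tetraploid and 7.40, 7.30 and 7.16 on the diploid arrays, a difference of -0.10 ± 0.09. Xpa, which checks the damage before the cut, differed by 0.05 ± 0.13, and the fractions overlapped in all 3 of these genes.

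The pathways were then set side by side on each array, as the mean over tested members of the log2 intensity minus the mean of each gene over the 6 arrays. The homologous recombination genes were at -0.18, -0.19 and -0.21 on tetraploid replicates 1 to 3 and 0.25, 0.07 and 0.27 on diploid replicates 1 to 3. The mismatch genes were at -0.13, -0.18 and -0.09 on the tetraploid and 0.25, 0.07 and 0.09 on the diploid arrays, and the Fanconi genes at -0.05, -0.03 and -0.14 on the tetraploid and 0.13, -0.02 and 0.11 on the diploid arrays. With all tested members counted, these 3 pathways had fractions that did not overlap. In the Fanconi genes diploid replicate 2 was next to the tetraploid range. The mismatch mean includes Exo1, which was tested only through its level in the diploid fraction. Of the other mismatch genes, Msh3 and Pms2 had overlapping fractions, and those of Msh6 were only 0.01 apart. The separation of the mismatch mean is therefore not shown to hold without Exo1. Break signalling was at -0.09, 0.08 and -0.20 on the tetraploid and -0.02, 0.07 and 0.17 on the diploid arrays, with overlap. The end joining genes were at 0.006, -0.04 and -0.03 on the tetraploid and 0.10, -0.05 and 0.008 on the diploid arrays, and nucleotide excision repair at -0.05, 0.11 and 0.03 on the tetraploid and 0.03, -0.09 and -0.02 on the diploid arrays. Base excision repair was at -0.01, -0.20 and 0.02 on the tetraploid and 0.15, 0.04 and -0.003 on the diploid arrays, where tetraploid replicate 3 lay above diploid replicate 3. Recombination and Fanconi genes together had a median difference of -0.23 over 14 genes, against -0.05 over the 23 tested members of the other pathways. Of the 14, 6 had tetraploid arrays below all diploid arrays (42.9%), as had 4 of the 23 (17.4%), beside 7.08% of all tested genes. The 4 include Exo1 and Mutyh, which passed the limit for dim genes only through the diploid fraction. Without diploid replicate 2, the 14 genes held 10 of the 18 members with tetraploid arrays below all diploid arrays. Of all tested genes, 13.9% then had this pattern. The median of the 23 was -0.11 without diploid replicate 2, and -0.0237 without tetraploid replicate 3. With the dimmest 50% of genes set aside, the median of recombination and Fanconi genes was -0.0712. That filter left out Rad51ap1, Rad54l, Rad51c and Fanca, so this is a median over fewer genes. The difference between these shares was not tested, because the members were listed with earlier results known.

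A list of 26 tested DNA replication genes and one of 21 tested mitosis genes, without members of the repair list, were computed beside them. The replication genes were at -0.20, -0.46 and -0.53 on tetraploid replicates 1 to 3 and 0.60, 0.24 and 0.35 on diploid replicates 1 to 3, with a median difference of -0.73, and 24 of 26 had tetraploid arrays below all diploid arrays. Within the diploid fraction, replicate 2 was the lowest array for the replication, mitosis and recombination genes, while replicate 1 was the highest for replication and replicate 3 for mitosis and recombination. Among the tetraploid arrays the replication genes were spread from -0.53 to -0.20, while the recombination genes were spread from -0.21 to -0.18. The mitosis genes were at -0.01, 0.32 and -0.29 on the tetraploid and -0.02, -0.30 and 0.30 on the diploid arrays, with overlap of the fractions, and 0 of 21 genes had tetraploid and diploid arrays that were separate. How much of the difference in repair genes goes with the share of replicating cells in each fraction was not tested.

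**Figure D3:**
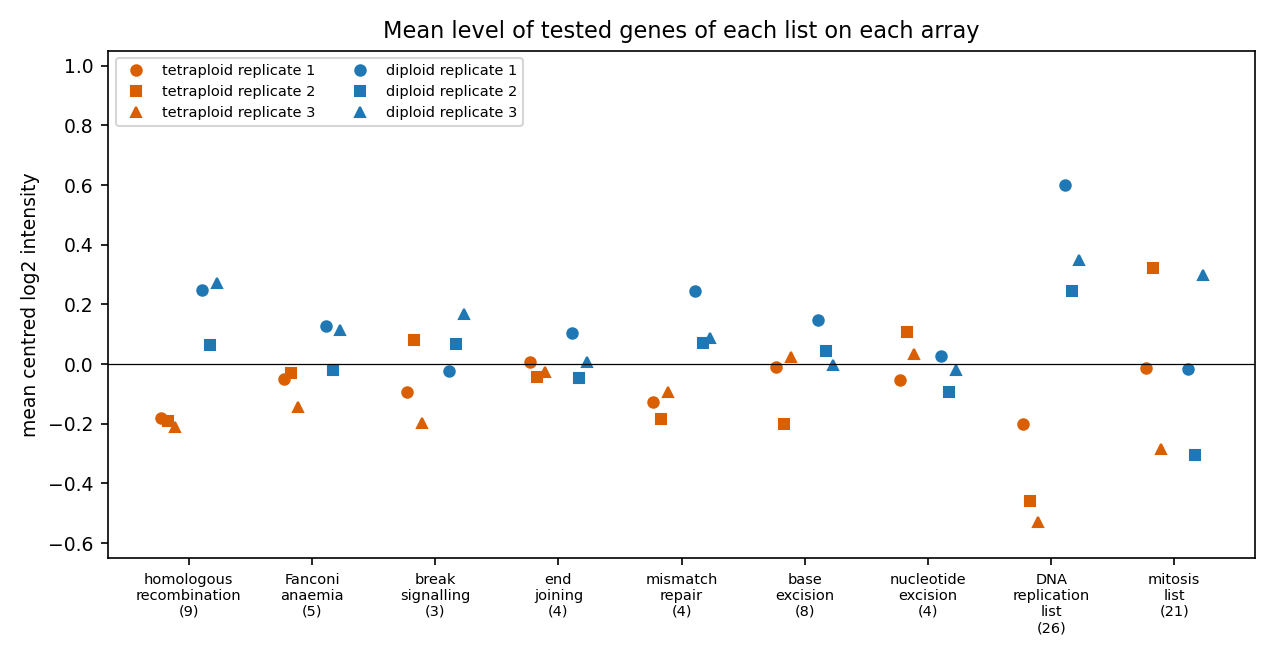
Mean level of each repair pathway on every array, with lists of DNA replication and mitosis genes beside them. The vertical axis is the mean over the tested genes of the list of the log2 intensity minus the mean of each gene over 6 arrays, with the number of genes in brackets and replicates as symbols. Homologous recombination, the Fanconi genes, mismatch repair and the replication list have tetraploid arrays all below the diploid ones, while end joining, nucleotide excision repair and the mitosis list overlap. The mismatch mean includes Exo1, which was tested only through its level in the diploid fraction. Of the other mismatch genes, Msh3 and Pms2 had overlapping fractions, and those of Msh6 were 0.01 apart.

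Several probe sets measured 17 of the 39 members, and the further 29 probe sets differed in the same direction as the one used in 20 cases. For the genes with tetraploid arrays below all diploid arrays, 10 of 11 further probe sets also had the lower tetraploid mean. Those of Rad51ap1 differed by -0.82, -0.35 and -0.12, against -0.98 for the one used. For Rad54l the further differences were -0.29 and -0.22, for Rad51c -0.38, for Fanca -0.24 and for Exo1 -0.22. The exception was Brca1, whose 3 further probe sets differed by -0.18, -0.03 and 0.20. These had mean log2 intensities between 4.31 and 5.07, against 7.34 for the one used. In all of these cases the further probe set gave the smaller difference. It was dimmer by the rule, which takes the probe set with the highest mean. With probe sets averaged, Rad51ap1 differed by -0.57, Rad54l by -0.38, Exo1 by -0.46, Fanci by -0.27 and Ogg1 by 0.033. Brca2, Msh6, Mutyh and Ung had 1 probe set each. Of the 10 genes, Brca2, Fanca, Mutyh and Ung were read by probe sets whose type allows matches to more than 1 transcript, and without that type 6 of 31 tested members had tetraploid arrays below all diploid arrays, beside 7.09% of all tested genes.

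**Figure D4:**
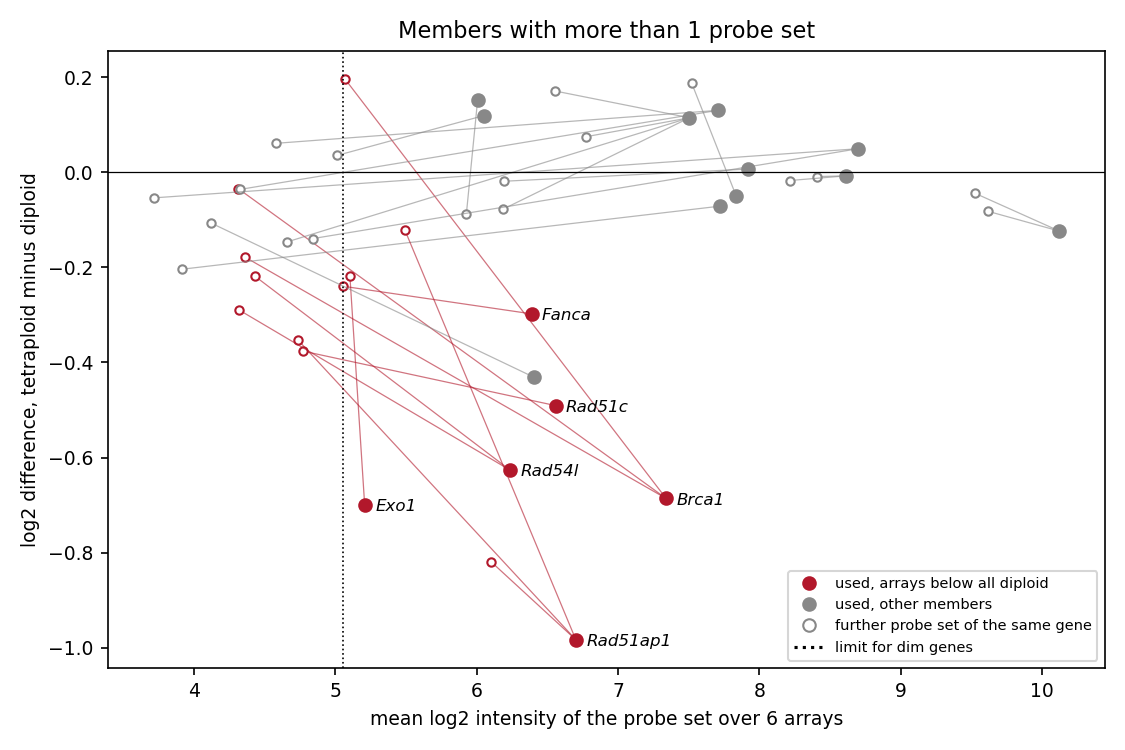
Every probe set of the 17 members that have more than 1. The horizontal axis is the mean log2 intensity over 6 arrays and the vertical axis the log2 difference, tetraploid minus diploid. Filled points are the probe sets used, open points the further ones of the same gene, joined by a line, and red marks genes whose tetraploid arrays all lie below the diploid arrays. The open red points lie at smaller differences and mostly near the dotted limit for dim genes, at 5.06, and 1 of them, for Brca1, lies above 0.

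A further list of 85 genes of the same pathways, of which 60 were tested, had a median closer to 0 than the members. Of the 60, 39 (65%) had the lower mean in tetraploid cells, as had 52.2% of all tested genes, and the median difference was -0.04. For 9 (15.0%) the tetraploid arrays lay below all diploid arrays, as for 7.08% of all tested genes. At an unadjusted limma p under 0.05, 8 (13.3%) were lower and 2 (3.33%) higher, where 3.85% and 2.32% of all tested genes were. The other 17 recombination genes had a median of -0.05, against -0.43 for the 9 members of that pathway. Lower genes at that limit included several that also serve the replication fork. Lig1, which seals the nicks left by lagging strand synthesis and by excision repair, was at 7.79, 7.81 and 7.34 on the tetraploid and 8.46, 8.26 and 8.60 on the diploid arrays, a difference of -0.79 ± 0.15 (adjusted p = 0.277). Rpa2 and Rpa1, subunits of the protein that coats single-stranded DNA, differed by -0.78 ± 0.16 and -0.39 ± 0.09, and their second probe sets by -0.63 and -0.31. Fen1, the flap nuclease, differed by -0.44 ± 0.14, and its second probe set by -0.72. Eme1, a partner of the nuclease MUS81, differed by -0.51 ± 0.12, and Mus81 itself by -0.03 ± 0.20.

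The remaining lower genes at that limit were Fancc of the Fanconi core at -0.26 ± 0.09, the glycosylase gene Mbd4 at -0.34 ± 0.13 and Ddb2, which finds ultraviolet lesions, at -0.30 ± 0.09. A second probe set for Fancc differed by -0.04 and one for Ddb2 by -0.45. Aptx, which clears abortive ligation products from DNA ends, was higher in all 3 tetraploid arrays, with a difference of 0.25 ± 0.07. Cdk7, the kinase of TFIIH, was higher at 0.19 ± 0.08, and its second probe set differed by 0.15. Among the strand exchange genes that did not reach the limit, Rad51b, Rad51d and Rad52 differed by -0.05 ± 0.21, -0.05 ± 0.14 and 0.06 ± 0.14. Ercc4, the nuclease partner of ERCC1, differed by 0.17 ± 0.10 with overlapping fractions.

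**Figure D5:**
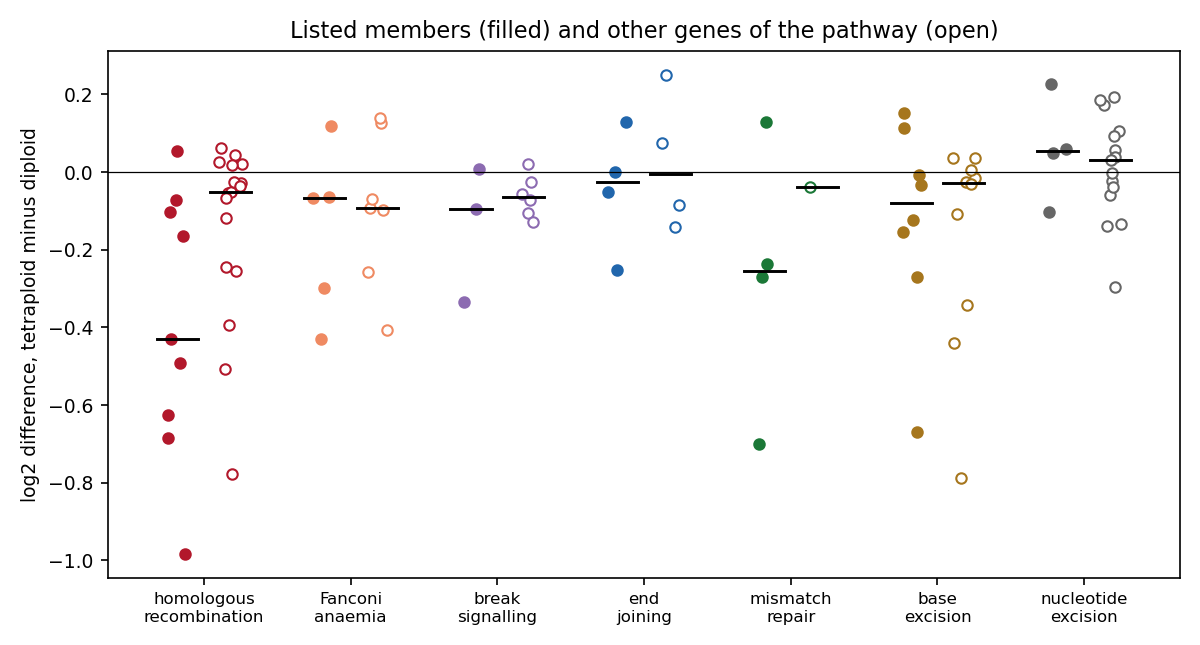
Log2 difference, tetraploid minus diploid, of the 37 tested members (filled) and of 60 tested further genes of the same pathways (open). Each point is a gene, spread sideways for legibility, and the bars are medians. The members of homologous recombination have a median of -0.43 and the further genes of that pathway -0.05.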

How the data were processed

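Primary hepatocytes sorted by DNA content were measured on 6 Affymetrix arrays, 3 tetraploid and 3 diploid. The authors deposited 1 intensity per probe set on a linear scale, and the submitters' processing notes name RMA, which corrects background, equalises the arrays and summarises probes. The software and version were not given in these sources. Intensities were converted to log2 here. Of 22690 probe sets, 20380 carried 1 gene symbol, 691 several and 1555 none, and 64 were controls. Symbols were checked through Entrez identifiers against the RefSeq table of GRCm38.p6, which matched 20351 probe sets and changed 0.

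A linear model with 1 term for the fraction was fitted to 9295 genes by lmFit and moderated by eBayes (limma 3.58.1, R 4.3.3), with two-sided tests. The fit was tested on simulated data. Precision is limited by the 6 arrays: the median SE of a difference was 0.0954. Members and lists were chosen with earlier results of these data known. Members with separate fractions, the 3 with the smallest p in each pathway and landmark genes were given array by array, and every other tested member by its difference. Of the other repair genes, those with an unadjusted p under 0.05 were named, and Rad51b, Rad51d, Rad52, Mus81 and Ercc4 were added after their values were seen. Alternatives covered the filter, the probe set, the scaling, the variance model, array weights, a log offset, a replicate block and leaving out each array.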

Additional observations from a re-analysis of the deposited data

How the results depend on the processing

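No setting gave a member an adjusted p under 0.05 with limma. Over all genes the count was 0, except 9 with the replicate number as a block (replicate block) and 0 to 1 when each array was left out, with the 1 found without tetraploid replicate 1. The numbers did not pair the samples, since deviations of same-numbered arrays correlated at 0.57, -0.20 and -0.20. The highest correlation of tetraploid replicates 1 to 3 with a diploid array of another number was -0.12, 0.69 and 0.38. Whether arrays of different numbers share a preparation was not tested, and the main fit took all arrays as unpaired. The block moved no count of members by over 1.5 times. Of 47 genes followed, 37 kept their direction under every setting that measured them, and the largest difference among the 10 that did not was 0.115, for Lig3. With array weights Nbn was at -0.0133 and Trp53bp1 at -0.0737. With arrays centred on the median Trp53bp1 was at -0.00293 and Xrcc6 at -0.00824, and after repeated quantile normalization at -0.0177 and -0.0347. With probe sets averaged Trp53bp1 was at -0.00605, Xpa at -0.0479 and Xrcc4 at 0.0681, and without probe sets that can match several transcripts Trp53bp1 was at -0.0189. With 1 array left out the ranges were -0.11 to 0.14 for Nbn, -0.16 to 0.0902 for Trp53bp1, -0.0514 to 0.0758 for Xrcc6, -0.0555 to 0.15 for Xpa, -0.15 to 0.0274 for Xrcc4, -0.14 to 0.0306 for Fancl, -0.10 to 0.11 for Parp1, -0.12 to 0.0183 for Xrcc1, -0.16 to 0.0177 for Rad50 and -0.00514 to 0.21 for Lig3.

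The recombination median was -0.30 with every probe set or with no filter, -0.18 with probe sets averaged and -0.25 with the stricter filter, which left out the 50% of genes with the lowest mean. Under that filter the mismatch median was -0.0704 and the recombination and Fanconi median -0.0712. At an unadjusted limma p under 0.05, 4 of 21 tested members were lower, beside 3.21% of all genes tested under it. Of the 21, 4 had tetraploid arrays below all diploid arrays, 2 of them in recombination and Fanconi, beside 6.10% of all genes tested under it. This filter tests fewer genes, since it removes members with low levels. With every probe set, 13 probe sets of the other repair genes were lower at that limit, beside 3.32% of all 15285 probe sets tested. This counts probe sets, so it cannot be set against a count of genes. Without probe sets that can match several transcripts, 6 of 31 tested members had tetraploid arrays below all diploid arrays, beside 7.09% of all tested genes. With 1 array left out, 7 to 13 members were lower at that limit, beside 2.46% to 4.22% of all tested genes. Tetraploid arrays then lay below all diploid arrays for 11 to 18 members, 6 to 10 of them in recombination and Fanconi. Of all tested genes, 9.79% to 13.96% had this pattern with 1 array left out. The medians then ran from -0.31 to -0.15 for mismatch repair, -0.15 to -0.0624 for the Fanconi genes and -0.11 to -0.0237 for the pathways other than recombination and Fanconi. The end joining median was 0.0348 with probe sets averaged and 0.0014 with every probe set, against -0.02. The cause of these shifts was not tested.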
